A study of Mus musculus with 6 samples.

Results

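The endoplasmic reticulum chaperones described here are 10 genes chosen by name for their role in protein folding: Hspa5, Hsp90b1, Sdf2l1, Calr, Canx, P4hb, Pdia3, Pdia4, Pdia6 and Creld2. They were measured in whole blood of male mice of the inbred strain C57BL/6J. One group was kept on 50% food restriction (FR) of a standard chow for 2 weeks and the other, the control, on a normal diet. Each diet had 8 animals, aged 9 weeks, and blood was drawn from the heart. Probes were assigned to a gene by the RefSeq accession in the scanner files, and every probe of each gene was kept. This found 15 probes for 9 of the 10 genes, among 41174 probes and 16535 named genes on the array. No probe matched Pdia3, and its level is not analysed here.

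RNA was pooled within each diet before labelling. Animals 1 to 8 made up pool 1, animals 1 to 4 pool 2 and animals 5 to 8 pool 3. FR and control RNA of a pool were hybridised together on 2 two-colour Agilent arrays, with FR in the red dye Cy5 on one and in the green dye Cy3 on the other, which gave 6 arrays. No animal is in both pool 2 and pool 3, and these 2 pools are the replicates behind each test, while pool 1 is a second measurement of these animals, made on its own slide. The spread between pools is a spread between pooled samples, not between animals.

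Secreted and membrane proteins fold in the endoplasmic reticulum. Hspa5 (BiP) and Hsp90b1 (GRP94) bind unfolded chains, calreticulin (Calr) and calnexin (Canx) hold new glycoproteins through their sugar, and the protein disulfide isomerases (P4hb, Pdia3, Pdia4, Pdia6) form and rearrange disulfide bonds. When unfolded protein accumulates, the sensors Ern1, Eif2ak3 and Atf6 start the unfolded protein response, in which Atf6 and spliced Xbp1 raise transcription of chaperone genes, in part through the endoplasmic reticulum stress element (ERSE) bound together with the factor NF-Y. In blood this machinery is most developed in cells that secrete heavily, above all antibody-secreting plasma cells, and mature red cells have none.

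The ERSE is what most of these genes share in their promoters, so the stretches that hold it are shown. Promoters of GRCm38.p6 from RefSeq, 250 bases before to 50 after the start site, were found for all 10 genes. Both strands were searched for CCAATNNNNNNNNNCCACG, which contains the NF-Y box CCAAT. Capitals mark the letters of the element that are fixed, read on the coding strand 5′ to 3′, so an element on the other strand appears as CGTGG before ATTGG.
Hspa5: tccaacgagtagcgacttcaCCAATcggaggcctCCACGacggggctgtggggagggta
Hsp90b1: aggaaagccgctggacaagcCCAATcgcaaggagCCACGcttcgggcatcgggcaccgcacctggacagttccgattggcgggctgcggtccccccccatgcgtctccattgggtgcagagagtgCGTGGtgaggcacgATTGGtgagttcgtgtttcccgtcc
Calr: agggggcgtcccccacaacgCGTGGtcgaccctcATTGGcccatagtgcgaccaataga
Canx: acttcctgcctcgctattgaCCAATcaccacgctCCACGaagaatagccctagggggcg
Pdia6: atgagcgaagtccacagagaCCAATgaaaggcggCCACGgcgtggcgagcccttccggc
Creld2: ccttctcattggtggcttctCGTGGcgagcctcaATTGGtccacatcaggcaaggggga
The windows searched were chr2:34771840-34772139 on the plus strand for Hspa5 and chr10:86705395-86705694 on the minus strand for Hsp90b1. Those of the lectin chaperones were chr8:84846882-84847181 for Calr and chr11:50325624-50325923 for Canx, both on the minus strand. Those of Pdia6 and Creld2 were chr12:17266339-17266638 and chr15:88819396-88819695, both on the plus strand.

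Of the 10 promoters, 6 held the exact ERSE, in 7 matches, against 39 of all 32851 promoters in the table, or 0.119%. The 39 include the chaperones' own promoters. The element was searched for because it is known from chaperone genes, so the contrast is a description. Hsp90b1 had 2 of the matches, from -212 to -194 and, reversed, from -107 to -89 relative to the start site. The Hspa5 element lay closest to the start, from -65 to -47, followed by Pdia6 from -98 to -80, Creld2 from -126 to -108, Canx from -145 to -127 and Calr from -162 to -144. With any base in the last position (CCAATNNNNNNNNNCCACN), Pdia3 and Pdia4 also matched, giving 8 of 10 against 0.365% of all promoters. P4hb and Sdf2l1 had neither form in this window. The second element, ERSE-II, and the core TGACGTGG of the Xbp1-bound element were in none of the 10 promoters, against 0.0365% and 0.676% of all promoters. The NF-Y box alone was in 10 of 10, against 37.4% of all promoters. A match describes letters in a window and not binding in these cells.

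Probes were tested where FR, or where control, was by the scanner's own call well above background on each of the 4 arrays of pools 2 and 3. Each gene was represented by its probe of highest mean signal, which left 11508 features. Of the chaperone probes, 11 of 15 passed this filter and 8 genes were tested. Of these 8, 5 fell with FR (Hsp90b1, Pdia6, P4hb, Creld2 and Canx), none rose and 3 failed the test (Hspa5, Calr and Sdf2l1), at an adjusted p under 0.05 (limma, Benjamini-Hochberg over 11508 features). Over all features 24.5% fell and 3.73% rose, so a fall was a common outcome on these arrays. At an unadjusted p under 0.05 the counts were also 5 and 0. The median log2 ratio of FR over control was -0.41 over the 8 chaperones and 0.01 over all features. Hsp90b1, Pdia6, P4hb, Canx and Sdf2l1 passed the filter through control on all 4 arrays and through FR on fewer, so the count covers what the filter let in and not the 10 genes.

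The 5 calls were not equally firm. With 2 pools, limma gave all features of like signal a common variance. When the prior degrees of freedom were instead held at 5.41, the value of a fit on all 3 pools, Hsp90b1 and Pdia6 passed alone, 2 of 8 chaperones against 15.5% of all features called lower. The same 2 passed when the channels were fitted as unpaired samples (no replicate block), against 8.57% of all features. The adjusted p of the other 3 lay between 0.101 for Creld2 and 0.164 for Canx in the first of these fits, and between 0.187 for P4hb and 0.457 for Canx in the second. In whole blood RNA, fewer cells of a type and less RNA per cell cannot be told apart.

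Hsp90b1, the endoplasmic reticulum member of the HSP90 family, folds Toll-like receptors and integrins. On the tested probe (A_52_P624149) its processed signal in FR blood was 179 and 140 in pool 1, 233 and 86.6 in pool 2, and 183 and 225 in pool 3, each pair with FR in Cy5 first. In control blood on the same arrays it was 1260 and 1470, 1950 and 1940, and 951 and 1170. All 6 FR values lay below all 6 control values, and control was highest in pool 2. The normalized log2 ratios on the 6 arrays ran from -2.10 to -1.09 and averaged -2.05 in pool 1, -2.06 in pool 2 and -1.23 in pool 3. Over pools 2 and 3 Hsp90b1 fell to a mean log2 ratio of -1.64 ± 0.58 (SD, n = 2 pools), 3.13-fold lower, with an adjusted p of 1.58e-23 (limma) that rests on the common variance and was 0.00591 with the prior of 3 pools. The second probe (A_52_P590546) gave log2 ratios between -1.59 and -0.98 on the 6 arrays, with a mean of -1.24 ± 0.28 (SD, n = 2 pools). FR was well above background on 2 of the 4 arrays of pools 2 and 3 for each probe, and the size of the fall depended on the background step: with the scanner's processed signals the tested probe gave -3.18.

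Hspa5, the HSP70-type chaperone of the endoplasmic reticulum and the usual readout of the unfolded protein response, did not pass the test. Its processed signal in FR blood was 2540 and 2970 in pool 1, 3350 and 2740 in pool 2, and 2000 and 1740 in pool 3. Control blood gave 2690 and 3960, 3940 and 3870, and 2510 and 2010 on the same arrays. FR was below control on each of the 6 arrays, but the 2 ranges overlapped widely, since the level also differed between pools. The log2 ratios ran from -0.39 to -0.04, with a mean of -0.20 ± 0.03 over pools 2 and 3 (SD, n = 2 pools; adjusted p = 0.372, limma). Both FR and control were well above background on all 6 arrays, so dimness did not limit this probe.

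Sdf2l1, a partner of Hspa5 and its J-domain co-chaperones, gave ratios whose sign went with the dye. With FR in Cy5 the log2 ratios were 0.13, 0.07 and 0.11 in pools 1, 2 and 3, and with FR in Cy3 they were -0.26, -0.33 and -0.14. Every FR-in-Cy5 array lay above 0 and every FR-in-Cy3 array below it. The dye-balanced mean over pools 2 and 3 was -0.07 ± 0.08 (SD, n = 2 pools; adjusted p = 0.731, limma). FR was well above background on 2 of those 4 arrays, and with processed signals the mean was -0.53 (adjusted p = 0.227, limma).

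**Figure D1:**
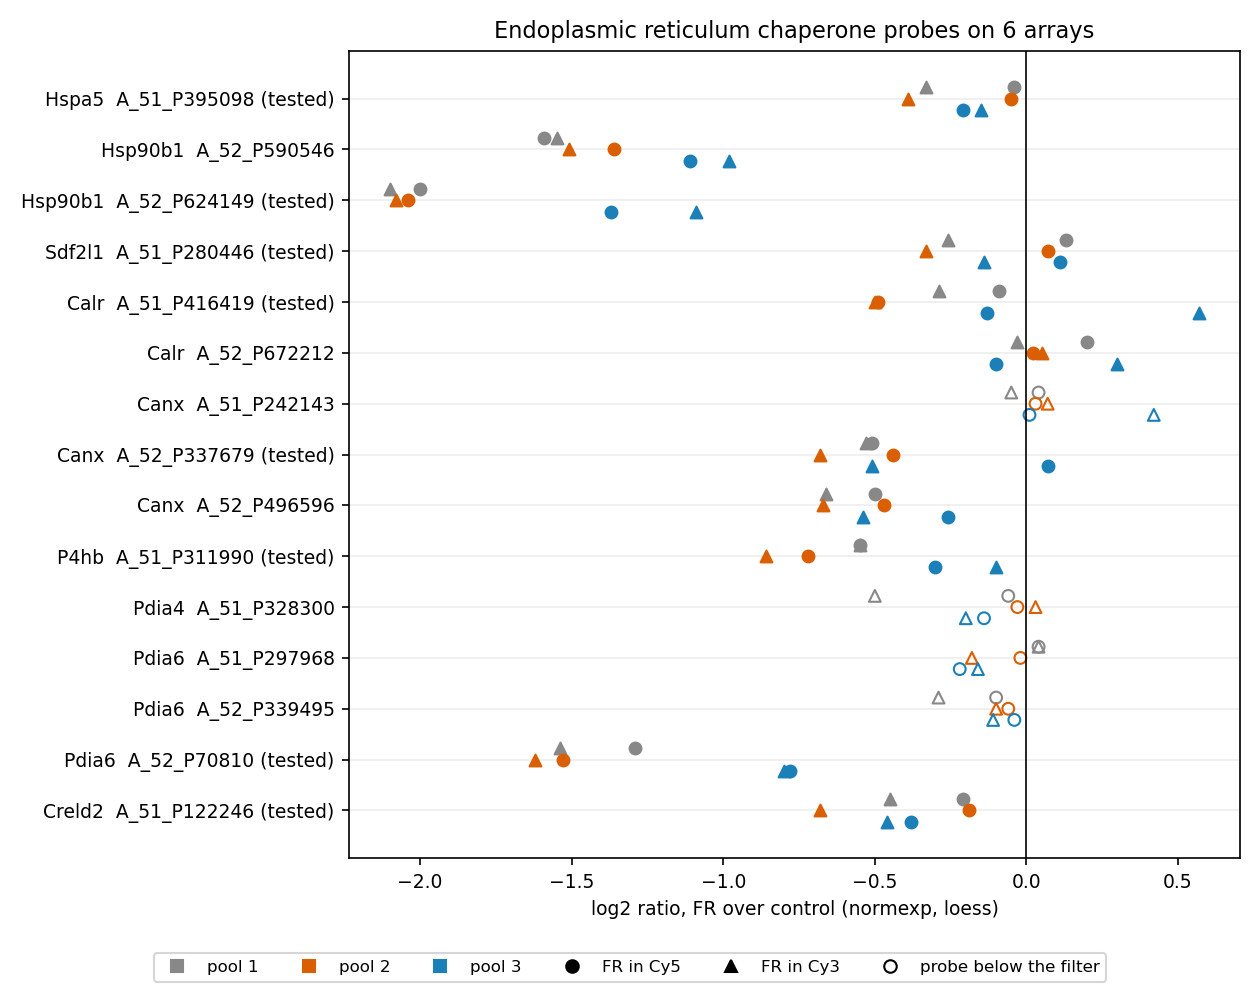
Log2 ratios of FR over control on each of the 6 arrays (x axis) for the 15 chaperone probes (y axis). Colour marks the pool, shape the dye of FR and open symbols the 4 probes that did not pass the filter. Both Hsp90b1 probes and 1 Pdia6 probe sit far left of 0, and the Sdf2l1 points split by dye.

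The plot of ratios by array shows the lectin chaperones close to 0 beside Hsp90b1. Canx, calnexin, is the membrane-bound lectin that retains new glycoproteins until they are folded. Its tested probe (A_52_P337679) had FR signals of 693 and 1070 in pool 1, 607 and 448 in pool 2, and 597 and 333 in pool 3, against control signals of 974 and 1360, 910 and 938, and 535 and 637. FR was lower on 5 of 6 arrays, the exception being the pool 3 array with FR in Cy5, and the ranges overlapped. The log2 ratio over pools 2 and 3 was -0.39 ± 0.24 (SD, n = 2 pools), 1.31-fold lower, which passed narrowly (adjusted p = 0.0444, limma), and it was -0.70 with processed signals. FR was well above background on 3 of the 4 arrays. A second Canx probe (A_52_P496596) was below 0 on all 6 arrays, from -0.67 to -0.26, with a mean of -0.48 ± 0.12 and an adjusted p of 0.00469 with each probe as its own feature (limma). The third Canx probe (A_51_P242143) did not pass the filter, with FR well above background on 1 of 6 arrays, and its mean was 0.13.

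Calr, calreticulin, is the soluble lectin chaperone that also buffers calcium and helps load MHC class I. FR signals on its tested probe (A_51_P416419) were 1550 and 2460 in pool 1, 2120 and 2170 in pool 2, and 1970 and 2860 in pool 3, against control signals of 1660 and 2730, 3240 and 3080, and 2190 and 1690. The pool 3 array with FR in Cy3 stood apart from the others, with a log2 ratio of 0.57 where the other 5 lay between -0.50 and -0.09. Over pools 2 and 3 the ratio was -0.14 ± 0.51 (SD, n = 2 pools; adjusted p = 0.557, limma). The pools had opposite signs, -0.50 in pool 2 and 0.22 in pool 3. The second Calr probe (A_52_P672212) gave 0.07 ± 0.05, with 2 of 6 arrays below 0, and did not pass either (adjusted p = 0.785, limma with each probe as its own feature).

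Of the disulfide isomerases, Pdia6 and P4hb could be tested. Pdia6, which also acts on the sensor Ern1, had FR signals on its tested probe (A_52_P70810) of 93.8 and 119 in pool 1, 107 and 40.2 in pool 2, and 169 and 118 in pool 3. Control signals on the same arrays were 568 and 887, 990 and 1260, and 480 and 645. No FR value reached the lowest control value. The log2 ratios were -1.29 and -1.54, -1.53 and -1.62, and -0.78 and -0.80, and pools 2 and 3 averaged -1.18 ± 0.56 (SD, n = 2 pools), 2.27-fold lower (adjusted p = 6.74e-14 with the common variance and 0.0135 with the prior of 3 pools, limma). FR was well above background on 1 of the 4 arrays, and the processed signals gave -3.10. The other Pdia6 probes (A_51_P297968 and A_52_P339495) did not pass the filter, with FR well above background on 0 of 6 arrays for both and mean ratios of -0.15 and -0.08, so they neither repeat nor contradict the fall.

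P4hb, the archetypal disulfide isomerase and a subunit of prolyl 4-hydroxylase, had FR signals of 200 and 172 in pool 1, 202 and 126 in pool 2, and 210 and 317 in pool 3. Control signals were 324 and 375, 565 and 662, and 314 and 456. FR was lower on all 6 arrays, and the groups touched only through pool 3, where 1 FR value passed the lowest control value. The log2 ratio was -0.79 in pool 2 and -0.20 in pool 3, with a mean of -0.49 ± 0.42 (SD, n = 2 pools), 1.41-fold lower (adjusted p = 0.00228, limma). FR was well above background on 2 of the 4 arrays, and the processed signals gave -1.34, so the size of the fall depended on the background step.

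Pdia4 (ERp72), a larger isomerase of the same family, was not well above background in FR on any of the 6 arrays and was in control on 1. Its log2 ratios ran from -0.50 to 0.03 and say nothing about its level.

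Creld2, a secreted and endoplasmic reticulum protein induced by stress that has isomerase activity, was the 1 lower chaperone whose FR signal was well above background on every array. Its FR signals were 1420 and 1430 in pool 1, 924 and 643 in pool 2, and 688 and 461 in pool 3, against control signals of 1710 and 1800, 986 and 1090, and 974 and 797. FR was lower on each array, while the 2 ranges overlapped across pools. The pools gave nearly the same ratio, -0.43 in pool 2 and -0.42 in pool 3, so the SD was 0.01 around a mean of -0.43 (n = 2 pools), 1.35-fold lower (adjusted p = 0.0255, limma). The 2 dyes differed more than the pools, with means over the 3 arrays of -0.26 with FR in Cy5 and -0.53 with FR in Cy3.

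**Figure D2:**
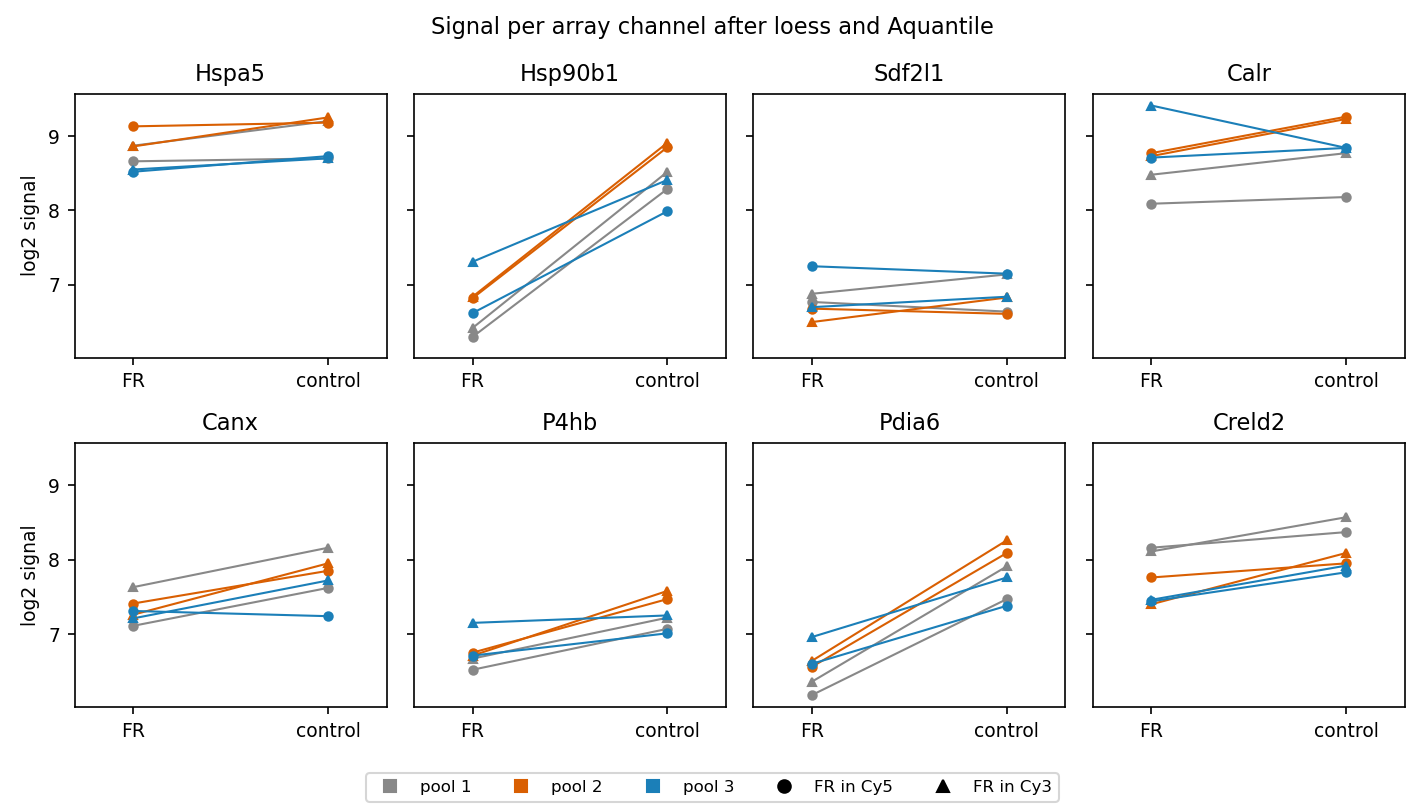
Log2 signal of FR (left) and control (right) on each array after loess and Aquantile normalization, for the tested probe of the 8 chaperones. Each line joins the 2 channels of 1 array, coloured by pool and marked by the dye of FR. The lines of Hsp90b1 and Pdia6 are the steepest, and those of Hspa5 are nearly level.

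The normalized signals by channel show the size of these differences on 1 scale. For Hsp90b1 the mean log2 signal over pools 2 and 3 was 6.90 in FR and 8.54 in control, and for Pdia6 it was 6.69 in FR and 7.87 in control. For Hspa5 it was 8.76 in FR and 8.97 in control. Ordered by their ratio, Hsp90b1 and Pdia6 came first among the chaperones, and P4hb, Creld2 and Canx followed, with ratios between -0.49 and -0.39. Hsp90b1 was lower than Pdia6 in both pools, at -2.06 against -1.58 in pool 2 and -1.23 against -0.79 in pool 3. P4hb was below Canx in pool 2, at -0.79 against -0.56, but not in pool 3, at -0.20 against -0.22. The differences between genes were not tested. Hspa5, Calr and Sdf2l1 came last.

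The pools differed in the size of the fall. All 8 tested chaperones had a lower ratio in pool 2 than in pool 3, with medians of -0.53 and -0.21, and the median in pool 1 was -0.43. The same order held for 53.9% of all features and for 89.1% of the features called lower, whose medians were -0.82 in pool 2 and -0.50 in pool 3. Of the tested chaperones, 5 (Hsp90b1, Pdia6, P4hb, Creld2 and Hspa5) were below 0 on all 6 arrays, against 30.0% of all features with 6 values. The arrays repeat the same animals, and Hsp90b1, Pdia6 and P4hb are among the genes that the filter let in through control, so the count is a description.

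**Figure D3:**
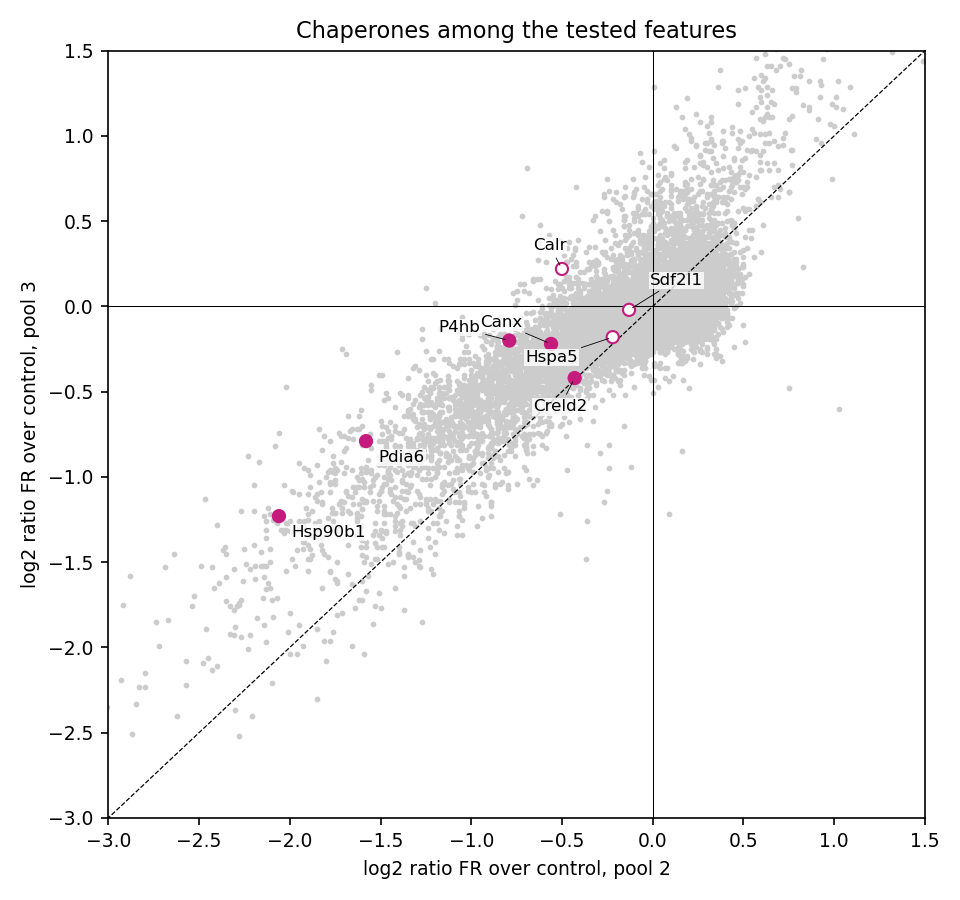
Log2 ratios of FR over control in pool 2 (x axis) and pool 3 (y axis) for the tested features (grey) and the 8 chaperones (filled where the adjusted p was under 0.05, open otherwise), with the line of equal ratios dashed. The axes leave out features beyond the range drawn. The 8 chaperones lie above the dashed line, Creld2 nearly on it, and Hsp90b1 and Pdia6 lie lowest among them. By the mean of both pools, 1.35% of all features lay at or below Hsp90b1 and 3.92% at or below Pdia6.

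Other genes of the same machinery were read from lists by role. Of the enzymes of folding and quality control, 10 of 34 tested fell, 1 rose and 23 failed the test, and the median log2 ratio was -0.24. The share that fell was 29.4%, near the 24.5% of all features, of which 3.73% rose. The thioredoxin-fold chaperone Erp29 fell to -2.01 ± 0.55 (SD, n = 2 pools; adjusted p = 1.35e-38, limma). Sdf2, the constitutive relative of Sdf2l1, fell to -1.03 ± 0.27, Tapbp (tapasin), which joins calreticulin at MHC class I, to -0.94 ± 0.31, and Mcfd2, a cargo receptor subunit, to -0.87 ± 0.24. Mcfd2 entered through control, with FR well above background on 2 of 4 arrays, and gave -2.03 with processed signals. Clgn (calmegin), the testis relative of calnexin, rose to 0.41 ± 0.05 (adjusted p = 0.0193, limma), a call lost with median centring, with the prior of 3 pools and without the replicate block. Kdelr1, which returns escaped chaperones to the endoplasmic reticulum, was at 0.05 (adjusted p = 0.858), and Hyou1, the nucleotide exchange factor of Hspa5, did not pass the filter.

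Of the regulators and classic targets of the unfolded protein response, 2 of 21 tested fell, 0 rose and 19 failed the test (limma), and the median was -0.02. The share that fell was 9.52%, below the 24.5% of all features. At an unadjusted p under 0.05, 3 of the 21 were lower and 1 was higher. Xbp1 was at 0.03 (adjusted p = 0.884), Ern1 at 0.14 (0.568), Ddit3 (CHOP), the stress-induced death factor, at 0.00 (0.993) and Dnajb9, a co-chaperone induced through Xbp1, at 0.15 (0.526). Atf4, the translationally induced factor of the Eif2ak3 branch, was at -0.30 (0.157). These probes measure total transcript, so splicing of Xbp1 and cleavage of Atf6 are not seen. The 2 that fell were Herpud1, a stress-induced part of the degradation complex, at -0.98 ± 0.24 (adjusted p = 8.06e-10) and Nfyb, a subunit of NF-Y, at -0.47 ± 0.13 (adjusted p = 0.00924, limma for all of these). Both entered through control, with FR well above background on 2 of 4 arrays for Herpud1 and 3 of 4 for Nfyb. Processed signals gave -2.31 and -0.85. Eif2ak3 did not pass the filter, and no probe matched Atf6 or Dnajb11.

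Upstream of folding, 11 of 28 genes of the translocon and signal processing fell, 2 rose and 15 failed the test, and the median was -0.24. The share that fell was 39.3%, against 24.5% of all features. Srp14, of the signal recognition particle, fell to -1.73 ± 0.12, and Rpn2, of the oligosaccharyltransferase, to -1.38 ± 0.52. The signal peptidase subunit Sec11a fell to -1.17 ± 0.30. Its neighbour in the pathway Stt3b, the catalytic oligosaccharyltransferase subunit, fell to -0.99 ± 0.48 (adjusted p = 2.40e-11, limma), with -0.65 in pool 3. Both entered through control, with FR above background on 1 of 4 arrays for Sec11a and 0 of 4 for Stt3b. With processed signals they gave -3.28 and -3.15, so the size of either fall is uncertain. Srp9 and Srp72, of the same particle as Srp14, passed as higher at 0.40 ± 0.60 and 0.40 ± 0.36, Srp9 with -0.02 in pool 2, and neither passed with median centring, with the prior of 3 pools or without the replicate block. Sec61b, of the translocation channel, was at 0.35 (adjusted p = 0.0552, limma).

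Downstream, 9 of 23 genes of endoplasmic reticulum-associated degradation fell, 2 rose and 12 failed the test, and the median was -0.20. The share that fell was 39.1%, against 24.5% of all features. Syvn1, the ubiquitin ligase of the Sel1l complex, fell to -1.89 ± 0.42 on its tested probe, while its other probe gave 0.00. Os9, a lectin that delivers misfolded glycoproteins, fell to -0.94 ± 0.34 and the ligase Marchf6 to -0.87 ± 0.04. For Marchf6 FR was well above background on 3 of 4 arrays, and processed signals gave -1.46. Ube2j1, the membrane-anchored ubiquitin-conjugating enzyme, rose to 1.41 ± 0.18 (SD, n = 2 pools throughout).

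Across promoters, 37 genes held the exact ERSE and 14 of them were tested, the 6 chaperones included. This group was put together after the ratios were known. Of the 14, 8 fell and 0 rose (limma, and the same counts at an unadjusted p under 0.05), with a median of -0.36, and of the 8 that are not among the chaperones 4 fell, with a median of -0.26. Those 4 were Hnrnpa3, a splicing factor, at -2.29, Syvn1 at -1.89, Dnajc3 (p58IPK), a co-chaperone of Hspa5, at -0.38 and the oxidase Ero1b at -0.34. Of the named genes without it, 2221 of 7896 fell, or 28.1%, with a median of -0.04. Within the chaperones, Hsp90b1, Pdia6, Creld2 and Canx hold it and fell, and Hspa5 at -0.20 and Calr at -0.14 hold it and did not pass. P4hb, whose window lacks it, fell at -0.49, and Sdf2l1 at -0.07, also without it, did not pass. With the prior of 3 pools Creld2, Canx and P4hb did not pass (adjusted p = 0.101, 0.164 and 0.113, limma).

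Blood cell markers moved on the same arrays. The leukocyte marker Ptprc (CD45) fell to -2.71 ± 0.52 and the platelet chemokine Ppbp to -2.67 ± 0.55, while the red cell genes Hba-a1 and Alas2 were at 0.01 and 0.09 (SD, n = 2 pools). Of the B cell markers 10 of 12 fell, with a median of -1.99 and summed processed signals of 10200 to 13700 in FR against 60700 to 124000 in control. All 8 tested monocyte markers fell, with sums of 21200 to 30400 in FR against 155000 to 382000 in control. Falls were also counted for 10 of 12 platelet, 6 of 10 T cell and 4 of 6 NK cell markers. They were counted for 3 of 7 dendritic cell, 3 of 8 neutrophil and 1 of 14 erythroid markers. Rises were called for 1 neutrophil marker and 3 erythroid markers. The filter let in part of the markers through control. FR passed the scanner's call on each of the 4 tested arrays for 3 of 8 monocyte and 1 of 6 NK cell markers. It did so for 7 of 12 B cell and 5 of 10 T cell markers, and for all 12 platelet and all 14 erythroid markers. For 3 monocyte markers FR passed on 0 of these arrays. The counts of falls therefore describe what the filter let in. Of all features 24.5% fell and 3.73% rose. The summed signal of the 8 chaperones was 6150 to 8820 in FR and 7630 to 13100 in control, lower in FR on all 6 arrays. The part of these cell markers in the chaperone ratios was not tested.

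Of the plasma cell markers 0 of 5 tested passed in either direction, also at an unadjusted p under 0.05 (limma), and the median was -0.06. They were Mzb1, an endoplasmic reticulum co-chaperone, at -0.18 (adjusted p = 0.422), Txndc5 at -0.15 (0.482), Fkbp11 at -0.06, Ssr4 at -0.04 and Xbp1 at 0.03, and their summed signals were 5210 to 9760 in FR and 5570 to 10200 in control. Several of these are also members of the folding, translocon or stress response lists. The defining markers Prdm1, Sdc1, Tnfrsf17, Jchain and Irf4 did not pass the filter, so plasma cells themselves were hardly measured. Of the 4 tested cardiac muscle markers and the 4 hepatocyte markers 0 passed, also at an unadjusted p under 0.05.

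**Figure D4:**
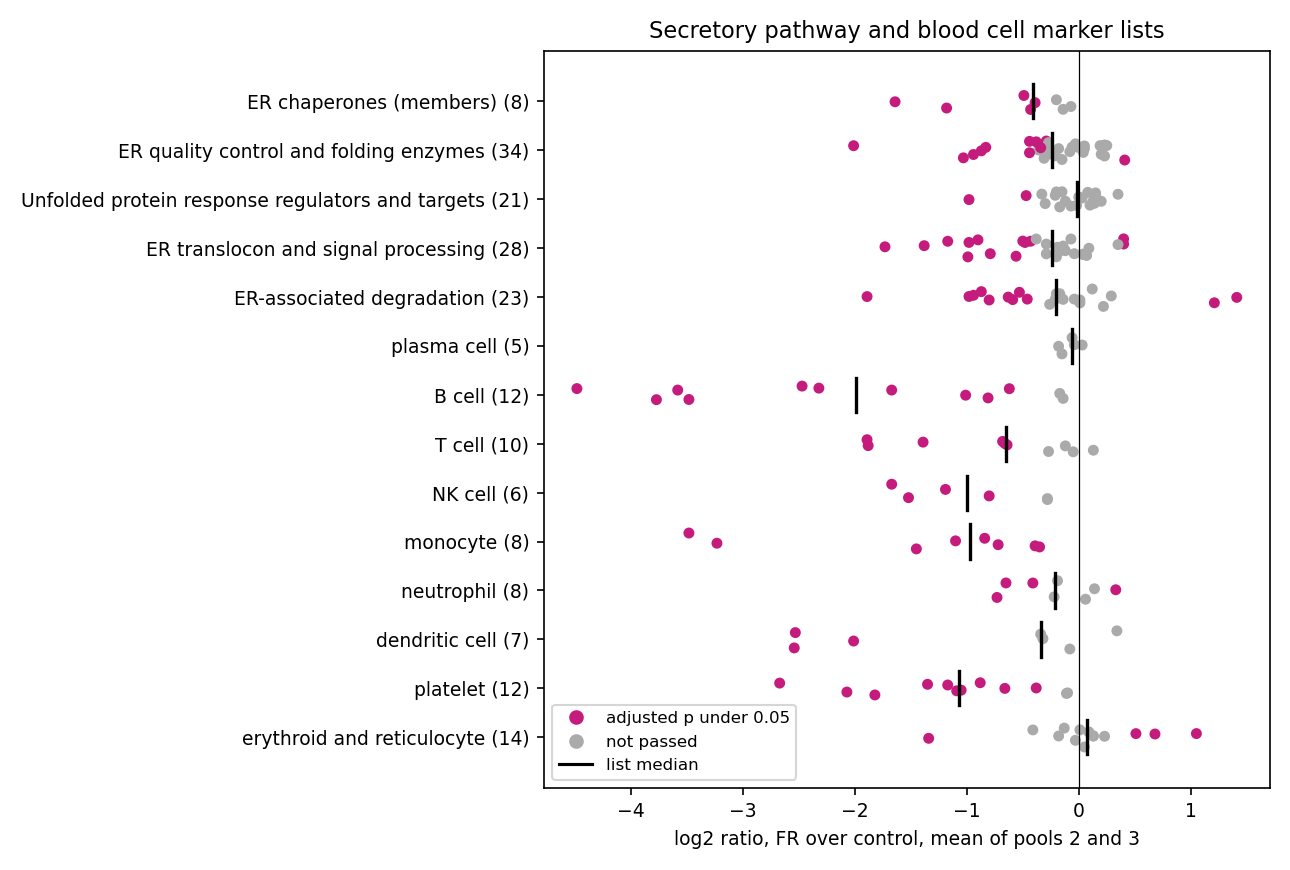
Log2 ratios of FR over control, mean of pools 2 and 3 (x axis), for the tested genes of the chaperones, 4 secretory pathway lists and 9 blood cell marker lists (y axis, number tested in brackets). Magenta points had an adjusted p under 0.05, grey points did not, and bars are list medians. The chaperone median of -0.41 lies between those of the folding enzymes at -0.24 and the T cell markers at -0.65.

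The share of probe spots well above background ranged over the arrays from 20.4% to 55.6% in the FR channel and from 37.2% to 62.1% in the control channel, and no spot was saturated. The pool 3 array with FR in Cy3 had the lowest FR share and correlated with the others at 0.70 to 0.82 over all features, against 0.76 to 0.94 among the rest. It was also the array on which Calr stood apart. Without it, pool 3 being its other array, 4 chaperones fell, against 21.3% of all features, and Canx, at -0.25, did not pass (adjusted p = 0.327, limma). The setting was chosen after seeing the data. With median centring of each array in place of loess, the median over all features was -0.19 and that over the 8 chaperones -0.65, and the same 5 passed, against 35.6% of all features called lower.

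**Figure D5:**
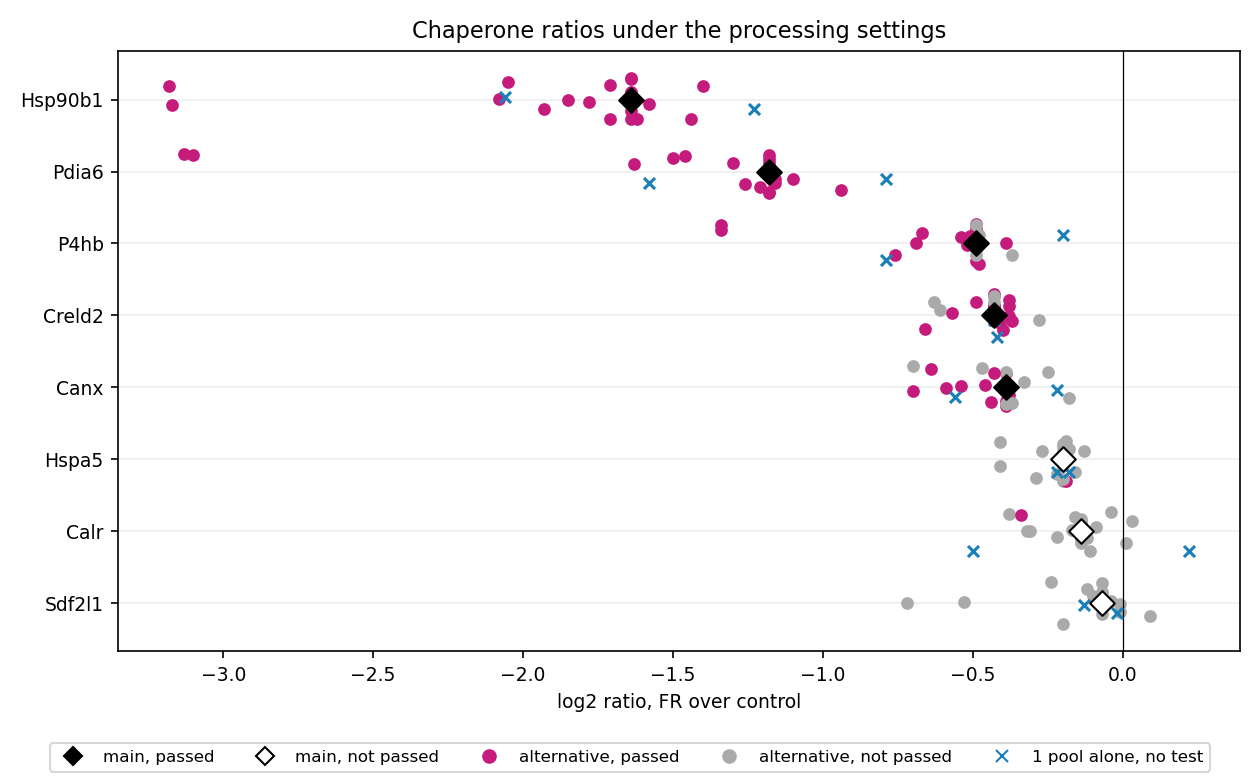
Log2 ratio of FR over control (x axis) of the 8 tested chaperones (y axis) under the reported setting (diamonds), the alternative settings (dots) and each pool alone (crosses, no test). Filled black and magenta symbols passed at an adjusted p under 0.05. Hsp90b1 and Pdia6 passed under every alternative in which they were tested, and the other genes crossed the threshold or 0 under some.

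The plot of settings sets the 2 largest falls apart from the rest. Hsp90b1 and Pdia6 passed in 20 of 20 alternatives in which they were tested, with Hsp90b1 between -3.18 and -1.23 and Pdia6 between -3.13 and -0.79, single pools included. They were not tested when both diets had to be well above background on all 4 arrays. P4hb passed in 16 of 20, Creld2 in 16 of 21 and Canx in 12 of 20, and each stayed below 0 in all of them. Hspa5 and Calr passed in 1 of 21 each and Sdf2l1 in 0 of 20. Among these alternatives are 4 that use pool 1, whose animals are those of pools 2 and 3, and the single passes of Hspa5 and Calr came from such fits.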

How the data were processed

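Whole blood RNA of FR and control mice was measured on 6 two-colour Agilent arrays, FR and control of a pool on each. Spot intensity values are in the scanner files as deposited. The submitters' processing notes name Agilent Feature Extraction 11.0.1.1 as the software. A further table by the authors gives log10 ratios of red over green processed signal that differ from the scanner files by at most 5e-10, with neither centring nor turning of swapped arrays. Its column medians were -0.00938 and -0.0277 (pool 1, FR in Cy5 first), 0.0441 and 0.00763 (pool 2), and 0.0520 and -0.0221 (pool 3). Directions came from the dyes in the labels.

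With limma 3.58.1 in R 4.3.3, background was corrected by normexp (offset 50) on median and background median signals, and loess, with weight 0 for control spots, normalized the log2 ratios. Control and outlier spots were left out, spots of a probe averaged, signs turned to FR over control and the 2 arrays of a pool averaged. Signals per channel were scaled by Aquantile. lmFit and eBayes with trend (two-sided) tested pools 2 and 3 against 0, with Benjamini-Hochberg adjustment. Pool 1 holds the animals of pools 2 and 3 and did not enter the reported test. The 4 alternatives that use it (3 pools as replicates, pool 1 replacing pool 2 or pool 3, and 6 arrays) count the same animals again. FR and control share each array, so the pool is a block by construction of the array. The fit was tested on simulated data with 200 changed features and a variance set by signal alone. Such data cannot check the common variance on which the adjusted p-values rest. The small number of pools limits the precision.

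Of 41174 probes 23374 were named, by unversioned accession, from the RefSeq table of GRCm38.p6, which also gave the promoters. No probe coordinates are given, since the build of the array design differs. Where FR was at background, the fold of a gene is uncertain.

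The chaperones and all lists were chosen with earlier results of these data known. Named from each other list were up to 4 genes with the largest ratios among those that passed in each direction, 13 stress response and folding genes whatever their value, and defining markers of blood. The extreme genes of each marker list, which the rule also took, are given here as counts. One gene that the rule took is not reported here. Fkbp11 and Ssr4 were named to complete the 5 plasma cell markers, and the ERSE genes that fell were named after their values were seen. Alternatives changed the background step, normalization, filter, probe choice, variance model, replicates, dye, slide and pairing. Each changed 1 choice, except the authors' table, which changes background step and normalization together, and the fit on 6 arrays, which adds pool 1, takes arrays as units and adds dye and slide terms.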

Additional observations from a re-analysis of the deposited data

Results flagged for a closer look

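Sdf2l1 was singled out because its ratio changed sign with the dye. Its mean log2 ratio of FR over control was 0.10 on the 3 arrays with FR in Cy5, each of them above 0, and -0.25 on the 3 arrays with FR in Cy3, each below 0. The difference between the orientations was not tested.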

How the results depend on the processing

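The number of chaperones lower in FR was 5. It was 3 with the authors' series table (log10 ratios turned and centred) and with only the FR-in-Cy5 arrays, 2 with prior degrees of freedom taken from 3 pools, 2 without the replicate block, which ignores the pairing on the array, and 1 with both diets above background, where 3 chaperones were tested. With pool 1 replacing pool 2 or pool 3 it was 3 or 6. Of all features 24.5% were lower as reported, 15.5% with the prior of 3 pools and 8.57% without the block. Lower features numbered 2823 as reported, 3066 with the series table and 3145 with FR in Cy5 alone. With pool 1 replacing pool 2 or pool 3 they numbered 2376 or 4165. With both diets above background they numbered 1313 of a smaller number tested, so no share stands beside that chaperone count. The count of chaperones higher in FR was 0 in all alternatives run. The median of -0.41 was -0.65 with processed signals, -0.65 with median centring and -0.71 with the series table, -0.20 with both diets above background, -0.30 with FR in Cy5 alone, and -0.46 to -0.37 with pool 1 replacing a pool. Calr turned to 0.01 with pool 1 replacing pool 2, 0.03 with FR in Cy3 alone and 0.22 in pool 3 alone, and Sdf2l1 to 0.09 with FR in Cy5 alone. The causes were not tested, and neither was the part of the smaller number of genes or arrays where a setting leaves some out.

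Over all features, 2823 fell, against 1313 with both diets above background, 1788 with the prior of 3 pools, 986 without the replicate block and 2376 to 4165 with pool 1 replacing a pool. As reported 429 rose, and in separate fits 181 did with median centring, 176 with the prior of 3 pools, 921 with 3 pools as replicates, 1002 with FR in Cy5 alone, 1178 with 6 arrays as units and dye and slide as terms, 116 without the block and 468 to 1717 with pool 1 replacing a pool.

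For the lists, the counts are given as folding enzymes, stress response, translocon and degradation. Lower genes numbered 10, 2, 11 and 9. With median centring they were 20, 6 and 17 for the first 3, with both diets above background 5, 0 and 5 for all but the translocon, with the prior of 3 pools 6 and 1 for the first 2, with 3 pools as replicates 18 and 4 for the first 2, and without the block 5, 1, 6 and 3. With pool 1 in the place of a pool they ranged from 7 to 19, 2 to 7, 10 to 18 and 9 to 13. The share of all features called lower was 24.5% as reported and 35.6% with median centring. It was 15.5% with the prior of 3 pools and 8.57% without the block. With 3 pools as replicates 3581 features were lower, against 2823 as reported. Higher genes numbered 1, 0, 2 and 2. Folding enzymes that rose were 2 with processed signals, 0 with median centring, the prior of 3 pools or no block, 3 with 3 pools and 1 to 4 with pool 1 replacing a pool. Stress response genes that rose were 1 with processed signals or 3 pools and 1 to 2 with pool 1 replacing a pool. Translocon genes that rose were 0 with median centring, the prior of 3 pools or no block. With processed signals 561 of all features rose, against 429 as reported.

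Signal over background limited Hsp90b1, Pdia6, P4hb, Canx and Sdf2l1, whose FR signal was at background on some arrays, so their fold is uncertain.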
